A study of Mus musculus with 24 samples.

Results

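The 34 genes described here encode lysosomal hydrolases, the proteins that assist them and proteins of the lysosomal membrane. They were chosen by function, without the cathepsins and the proton pump, and were found by gene symbol in both deposited count tables, which share 49022 genes. By role they are 5 membrane glycoproteins (Lamp1, Lamp2, Cd63, Scarb2, Laptm5), 3 channels or transporters (Mcoln1, Cln3, Npc1), 4 soluble activators or lipid carriers (Npc2, Psap, Grn, Gm2a), 11 glycosidases (Gusb, Hexa, Gla, Glb1, Gaa, Naglu, Idua, Neu1, Man2b1, Manba, Fuca1), 3 sulfatases or sulfamidases (Sgsh, Arsa, Arsb), 4 lipid hydrolases (Asah1, Smpd1, Galc, Pla2g15) and 4 proteases, thioesterases or phosphatases (Tpp1, Ppt1, Lgmn, Acp5).

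Polyadenylated RNA was sequenced from mouse lung macrophages in 24 libraries, in 8 groups of 3. Cells that were CD11b+ SiglecF- are called interstitial macrophages (IMs) here, and cells that were CD11b- SiglecF+ are called alveolar macrophages (AMs). Wild-type C57BL/6J mice gave IMs, not sorted for a reporter, at day 7 after PBS or after bleomycin, which damages lung tissue and leads to fibrosis in mice. Spp1-EGFP knock-in mice, in which EGFP reports the osteopontin gene Spp1, gave 6 groups. After bleomycin these were EGFP- IMs and EGFP+ IMs at day 7, EGFP+ IMs at day 14, EGFP+ AMs at day 14 and EGFP+ AMs at day 30, and after PBS they were EGFP+ AMs at day 7. Both agents were given through the trachea, and the bleomycin dose was 3 µg per g body weight in every bleomycin group. EGFP marks cells by Spp1 activity and not by lineage, and no PBS group holds reporter IMs or EGFP- cells. Nothing in the labels says whether a library came from 1 mouse or from a pool, so p-values here measure the spread between these libraries, which may be technical in part.

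Lysosomes are acidic organelles in which macrophages take apart engulfed cells, debris, surfactant lipid and matrix. Their soluble enzymes are tagged with mannose 6-phosphate, delivered through endosomes, and remove a particular sugar, sulfate, lipid or peptide each. The inherited loss of many of them causes a storage disease, in which the undigested substrate builds up, often in macrophages. Activator proteins such as the saposins lift lipids out of membranes for the hydrolases, and densely glycosylated proteins line and protect the membrane. Factors of the MiT/TFE family, among them TFEB, bind an element centred on the letters CACGTG that lies near the start of many lysosomal genes.

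Promoter sequences are shown for 7 of the genes whose promoters hold CACGTG, the centre of that element. A match to these letters does not show the whole element, and binding of MiT/TFE factors was not tested. The sequences are mostly of genes whose rises or falls, some of them small, are given by library further on. They come from RefSeq on GRCm38.p6, run 5′ to 3′ on the strand of the gene, and carry CACGTG in capitals, or TCACGTGA where the longer form is present. The windows of the first 5 genes run from 90 bases before the RefSeq start to 10 bases after it. The windows of Gla and Cln3 lie further upstream of their starts.
Lamp1, chr8:13159071-13159170, plus strand: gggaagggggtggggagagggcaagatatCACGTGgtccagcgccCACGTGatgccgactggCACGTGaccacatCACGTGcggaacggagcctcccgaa
Naglu, chr11:101070004-101070103, plus strand: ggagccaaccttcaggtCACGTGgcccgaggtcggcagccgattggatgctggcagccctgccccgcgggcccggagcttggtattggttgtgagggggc
Mcoln1, chr8:3500429-3500528, plus strand: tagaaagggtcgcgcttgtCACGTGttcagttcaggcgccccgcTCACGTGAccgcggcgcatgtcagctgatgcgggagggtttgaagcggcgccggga
Sgsh, chr11:119355501-119355600, minus strand: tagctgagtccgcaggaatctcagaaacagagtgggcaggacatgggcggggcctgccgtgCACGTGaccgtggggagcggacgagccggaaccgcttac
Glb1, chr9:114400988-114401087, plus strand: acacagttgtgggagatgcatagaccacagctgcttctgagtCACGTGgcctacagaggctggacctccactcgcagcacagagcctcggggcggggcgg
Gla, chrX:134601176-134601245, minus strand: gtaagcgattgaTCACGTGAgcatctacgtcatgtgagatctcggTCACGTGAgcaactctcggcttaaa
Cln3, chr7:126583337-126583406, minus strand: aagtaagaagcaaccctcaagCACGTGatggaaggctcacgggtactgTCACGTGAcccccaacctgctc

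The search covered 300 bases, from 250 before to 50 after each RefSeq start. Of the 34 genes, 32 matched an entry by symbol, with 37 promoters between them; Npc1 and Asah1 had none. CACGTG, which reads the same on both strands, was present in promoters of 10 genes (Arsa, Cln3, Gaa, Gla, Glb1, Lamp1, Lgmn, Mcoln1, Naglu, Sgsh), or 31.25% of those matched. Counted by promoter, this was 10 of 37 promoters (27.0%), and 2349 of all 32851 promoters of the same length (7.15%) held the same 6 letters. TCACGTGA, which contains CACGTG, was found in Cln3, Gla and Mcoln1 and in 0.974% of all promoters. With a G before and a C after those 8 letters it was found in Cln3 alone among the genes, and in 0.326% of all promoters. The promoters of these genes were richer in G and C (median 56.7%, against 52.7% over all promoters), which was not matched for in this comparison. The matched Cln3 and Lgmn promoters belong to RefSeq starts 2581 and 721 bases inside the deposited gene span, and the other start of each gene held no match. The matches of 4 genes whose names recur below lie at -61, -45, -28 and -15 in Lamp1, -73 in Naglu, -48 in Glb1 and -29 in Sgsh. Among the genes given by library below for the largest rises of a comparison, Naglu, Glb1, Sgsh, Gaa and Lgmn held CACGTG. Grn, Cd63, Acp5, Hexa, Laptm5 and Pla2g15 held none, and a relation of the motif to the changes was not tested.

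**Figure D1:**
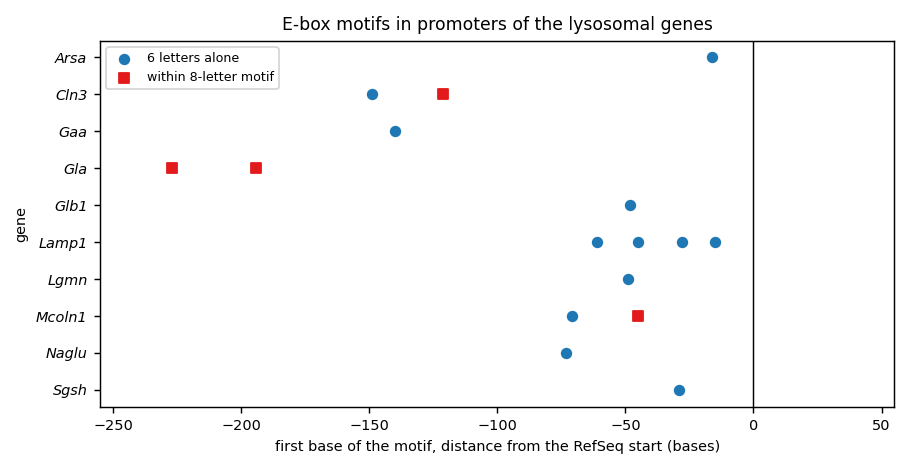
Positions of CACGTG in promoters of the 10 lysosomal genes that hold it; the horizontal axis is the distance of the first base from the RefSeq start in bases, circles are the 6 letters alone and squares lie within TCACGTGA. Lamp1 holds 4 copies between -61 and -15, and both copies in Gla lie within the longer form at -227 and -194.

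Library totals ran from 13450053 to 24580620 counts, and levels are given as CPM, a gene's count scaled to the library's total count. Gene positions are on GRCm38. The lowest count of any of the 34 genes in any library was 41, for Sgsh. The macrophage markers (Cd68, Adgre1, Csf1r, Mertk, Fcgr1, Lyz2) summed to 10336 to 61276 CPM in all groups but the EGFP- IMs, where they summed to 4847 to 4906 CPM. Neutrophil markers were highest in the wild-type PBS IMs (8069 to 9544 CPM in sum) and the EGFP- IMs (5124 to 6689 CPM). Lung epithelial markers reached 4445 to 6622 CPM in the wild-type PBS IMs and at most 398 CPM elsewhere. Spp1 itself was 7.65-fold higher in EGFP+ than in EGFP- IMs at day 7. Every marker of the 11 lists was above 0 in every group, apart from the neutrophil gene Camp in AMs at day 14. Replicate 1 of the EGFP+ IMs at day 14 stood apart, with a macrophage marker sum of 15067 CPM against at least 36539 CPM in the other libraries of its group. In bulk samples such as these, fewer cells of a type and less RNA per cell cannot be told apart.

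Levels of the genes differed widely in amount. Per kilobase of exon, Psap, which encodes the precursor of the saposin activators, was the most abundant in every group, with group means of 1560.0 to 5118 CPM per kb. Lamp1, a structural glycoprotein of the membrane, had group means of 249 to 673 CPM per kb, Laptm5, a membrane protein of blood cells, 259 to 571 CPM per kb, and Lgmn 88.4 to 1059 CPM per kb. At the low end were Sgsh, which removes sulfate from heparan sulfate (0.511 to 7.44 CPM per kb), and Galc, which cleaves galactose from galactosylceramide (2.0 to 5.91 CPM per kb). Across the 8 groups, the ratio of the highest to the lowest group mean ran from 1.57 for Idua, a glycosidase acting on heparan and dermatan sulfate, to 14.8 for Pla2g15 and 14.8 for Acp5.

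For most genes the lowest group mean was in a PBS group or in EGFP- IMs: 18 of 34 were lowest in wild-type IMs after PBS, 9 in EGFP- IMs and 5 in AMs after PBS. The highest mean fell in AMs at day 30 for 12 genes, in EGFP+ IMs at day 14 for 10, in AMs after PBS for 6 and in AMs at day 14 for 4. IMs at day 14 and AMs at day 14 and day 30 are in one deposited table, and the remaining groups are in the other. Table and group therefore cannot be told apart in this order. The count for AMs after PBS fell to 2 when CPM were scaled by the factors of the fit. Sgsh was the only gene highest in wild-type IMs after bleomycin, and Gla, which removes galactose from glycolipids, the only gene highest in wild-type IMs after PBS.

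**Figure D2:**
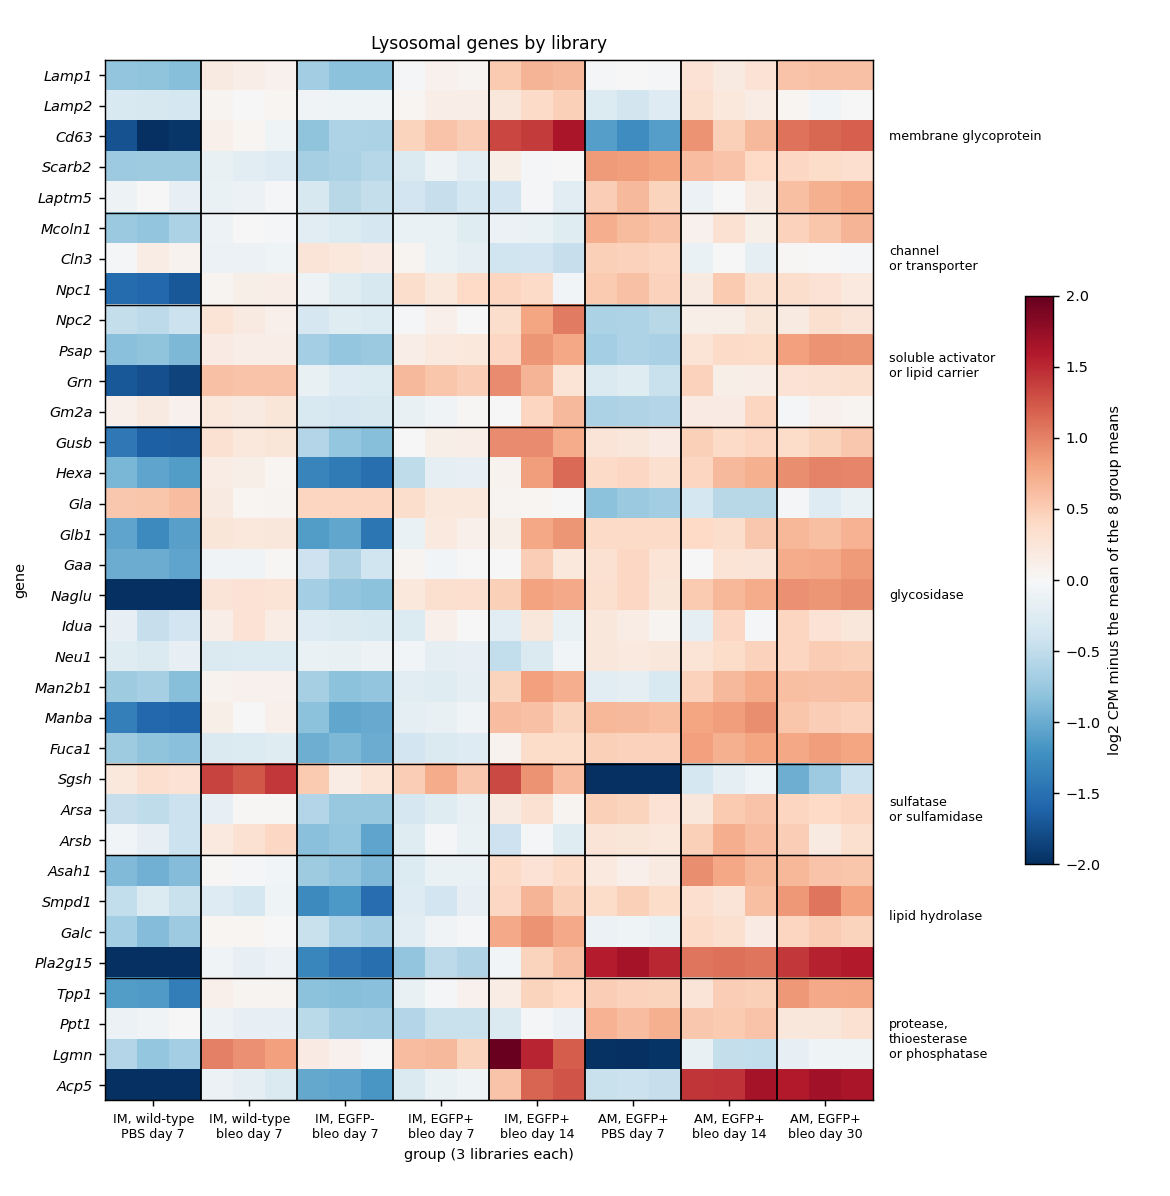
Levels of the 34 genes (rows, in blocks by role) in the 24 libraries (columns, 3 per group), as log2 CPM minus the mean of the 8 group means of that gene; colours end at 2 in either direction. Wild-type IMs after PBS and EGFP- IMs are below the mean for most genes, while Gla and Cln3 run against that pattern.

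Together the 34 genes took 1.09% to 1.13% of the counts of wild-type IMs after PBS and 2.06% to 2.12% after bleomycin. Their share was 1.23% to 1.30% in EGFP- IMs and 1.95% to 2.02% in EGFP+ IMs at day 7. The day 14 IM libraries held 2.64%, 3.15% and 2.99% in replicates 1, 2 and 3. In AMs the share was 1.57% to 1.63% after PBS, 2.33% to 2.43% at day 14 and 2.92% to 3.02% at day 30. The ranges did not overlap between any groups compared with each other within a gate. Libraries of day 7 are in one deposited table and those of day 14 and day 30 in the other, so table and group cannot be told apart between them. Psap alone made up 0.413% to 1.43% of all counts. The other 33 genes gave the same order of groups within each gate, from 0.673% to 0.699% in wild-type IMs after PBS up to 1.61% to 1.73% in IMs at day 14, and from 1.07% to 1.13% up to 1.55% to 1.6% in AMs.

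**Figure D3:**
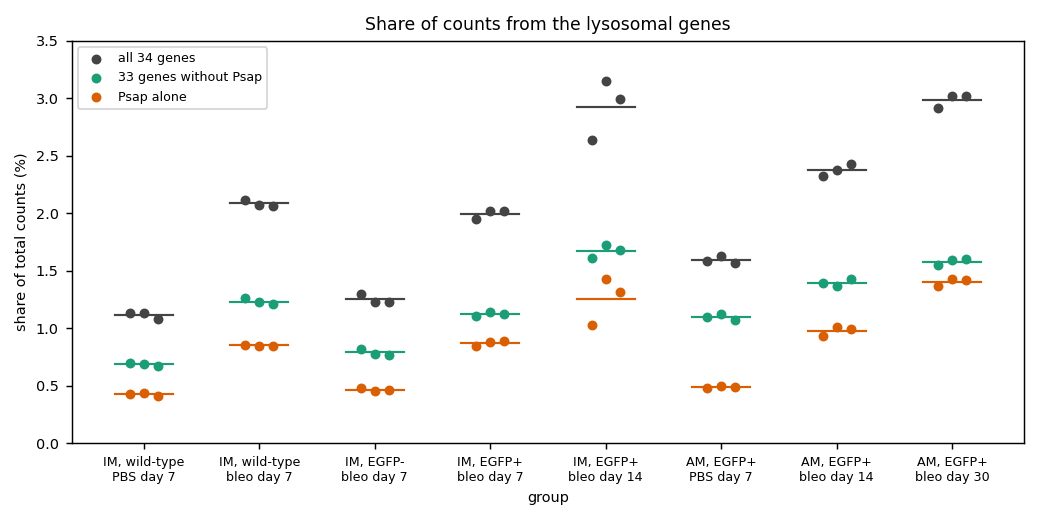
Share of each library's total counts (percent, vertical axis) taken by all 34 genes, by Psap and by the other 33 genes, with 1 point per library and a line at the group mean. The share of all 34 genes lies between 1.09% and 1.13% in wild-type IMs after PBS and reaches 3.15% in IMs at day 14 and 3.02% in AMs at day 30.

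The comparison of wild-type IMs asks what bleomycin had changed in this gate by day 7. Of the 34 genes 27 were higher after bleomycin, 3 were lower and 4 were not called, where a call is an adjusted p under 0.05 by edgeR over all genes tested. Over all 15496 genes tested, 35.6% were called higher and 34.5% lower. The median log2 fold change was 0.81 for the 34 genes and 0.00 for all genes. The largest rises were those of Naglu, which removes N-acetylglucosamine from heparan sulfate, and Grn, which encodes progranulin. The falls were small and were those of Gla, Cln3 and Ppt1, a thioesterase that strips fatty acids from proteins.

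Naglu (ENSMUSG00000001751, chromosome 11, 101070012 to 101077672) stood at 14.0, 15.3 and 12.3 CPM after PBS and at 84.1, 86.3 and 85.4 CPM after bleomycin. All 3 bleomycin libraries were far above all 3 PBS libraries, a 5.95-fold rise (log2 fold change 2.57 ± 0.08 SE, adjusted p = 6.2e-18). Grn (ENSMUSG00000034708, chromosome 11, 102430315 to 102437048) went from 276, 263 and 247 CPM to 1343, 1322 and 1325 CPM. That is a 4.91-fold rise (log2 2.30 ± 0.05 SE, adjusted p = 3.2e-20), with no overlap. Progranulin is a secreted and lysosomal protein whose fragments, the granulins, act in the lysosome. Gla (ENSMUSG00000031266, chromosome X, 134588149 to 134601125) went the other way, from 284, 289 and 301 CPM to 223, 202 and 203 CPM. It fell 1.43-fold (log2 -0.52 ± 0.05 SE, adjusted p = 1.2e-08). Cln3 (ENSMUSG00000030720, chromosome 7, 126571207 to 126585817), a membrane protein lost in a childhood form of neuronal storage disease, was at 95.9, 108 and 104 CPM after PBS and 90.3, 90.3 and 92.5 CPM after bleomycin. The bleomycin libraries were all lower, by a fold of 1.16 (log2 -0.22 ± 0.06 SE, adjusted p = 0.00196). Its exons overlap those of Apobr on the other strand, which also went from 162 ± 7.26 to 131 ± 3.96 CPM (SD, n = 3). The strand setting of the counting is not given in the sources used here, so reads of such pairs cannot be told apart.

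By role, the glycosidases gave 9 rises and 1 fall among 11, with Gusb, a glucuronidase, 3.41-fold higher and Manba, a mannosidase, 2.91-fold higher. Neu1, a sialidase, was not called (log2 -0.08, adjusted p = 0.16). Of the 5 membrane glycoproteins, 4 rose: the tetraspanin gene Cd63 3.81-fold, Lamp1 1.87-fold, Scarb2 1.37-fold and Lamp2 1.24-fold. Scarb2 is the receptor that brings glucocerebrosidase to the lysosome. Laptm5 was at 1253 ± 70.5 CPM after PBS and 1248 ± 42.1 CPM after bleomycin. Among the channels and transporters, the cholesterol exporter gene Npc1 rose 3.16-fold and Mcoln1, a calcium channel, 1.54-fold. Npc2, which hands cholesterol to that exporter, and Psap rose 1.53-fold and 1.93-fold, and Gm2a, the activator for GM2 ganglioside, was not called (log2 0.05, adjusted p = 0.37). All 3 sulfatases or sulfamidases rose, with Sgsh 2.02-fold higher. Of the lipid hydrolases, the phospholipase gene Pla2g15 rose 4.42-fold, the ceramidase gene Asah1 1.79-fold and Galc 1.67-fold, and the sphingomyelinase gene Smpd1 was not called (log2 0.13, adjusted p = 0.29). Acp5, the tartrate-resistant acid phosphatase also known from osteoclasts, rose 4.03-fold, the asparagine-specific protease gene Lgmn 2.93-fold and the tripeptidyl peptidase gene Tpp1 2.34-fold. Ppt1 was called lower at a fold of 1.09 with overlapping groups, and 8 of 13 alternative settings did not call it.

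Other lysosomal lists moved in the same comparison. Of 12 cathepsins 10 were higher and 2 lower, with Ctsd 6.89-fold and Ctss 4.16-fold higher. Of 16 proton pump genes 13 were higher and 1 lower, and Atp6v0a1 was 2.36-fold higher. All 6 genes of mannose 6-phosphate sorting were higher, Igf2r, the large receptor, by 2.14-fold and Gnptab, the tagging enzyme, by 2.43-fold. Of 17 further hydrolases 12 were higher and 2 lower, with Galns 4.31-fold and Naaa 3.92-fold higher. Of 12 further membrane proteins 8 were higher and 2 lower, with Cd68 2.17-fold and the chloride exchanger gene Clcn7 2.83-fold higher. The MiT/TFE factors and partners split, 4 higher and 3 lower of 9: Tfec rose from 3.65 ± 0.41 to 51.7 ± 3.25 CPM, while Tfeb stood at 54.6 ± 4.32 and 54.2 ± 3.25 CPM. Beside these changes, all 10 neutrophil markers were lower after bleomycin (summed 8069 to 9544 CPM against 1770 to 1873 CPM). Epithelial markers were lower too (4445 to 6622 CPM against 141 to 182 CPM), with 9 of 11 called lower and 2 higher. All 6 B cell markers and all 6 fibroblast markers were lower. Of the 6 macrophage markers 5 were higher and 1 lower. Their part in the rise of the lysosomal genes was not tested.

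At day 7 after bleomycin, reporter IMs that were EGFP+ were set against those that were EGFP-, which addresses what goes with Spp1 activity within injured lungs. In EGFP+ IMs 23 of the 34 genes were higher, 1 was lower and 10 were not called. Over the 14967 genes tested, 17.2% were called higher and 17.6% lower. The median log2 fold change was 0.49 for the 34 genes and -0.02 for all. Glb1 and Cd63 had the largest rises, and Cln3 was the only gene called lower.

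Glb1 (ENSMUSG00000045594, chromosome 9, 114401076 to 114474898), the acid galactosidase, was at 21.6, 22.7 and 17.2 CPM in EGFP- IMs and at 42.6, 53.5 and 50.1 CPM in EGFP+ IMs. The groups did not overlap, and the rise was 2.30-fold (log2 1.2 ± 0.22 SE, adjusted p = 0.0029). Exons of Glb1 overlap those of Tmppe on the same strand, which was at 6.37 ± 1.79 CPM in EGFP- and 8.48 ± 1.14 CPM in EGFP+ IMs. Cd63 (ENSMUSG00000025351, chromosome 10, 128900989 to 128912822) was at 201, 229.9 and 227 CPM in EGFP- IMs. It stood at 479, 523 and 496 CPM in EGFP+ IMs, 2.20-fold higher (log2 1.13 ± 0.13 SE, adjusted p = 0.00011). A pseudogene of Cd63 could share some of its reads. Cln3 was at 118, 114 and 109.9 CPM in EGFP- IMs and 102, 89.8 and 86.1 CPM in EGFP+ IMs. All EGFP+ libraries were lower (1.27-fold, log2 -0.34 ± 0.09 SE, adjusted p = 0.0125), but without EGFP+ replicate 2 or EGFP+ replicate 3 the gene was not called (adjusted p = 0.0642 and 0.0719). Apobr was again lower in the same direction, at 181 ± 4.77 against 139.6 ± 6.05 CPM.

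All 4 lipid hydrolases rose in EGFP+ IMs, Smpd1 by 1.99-fold, Pla2g15 by 1.65-fold, Asah1 by 1.48-fold and Galc by 1.35-fold. Of the 11 glycosidases 8 rose, among them Hexa, an N-acetylhexosaminidase subunit (2.12-fold), Naglu (2.01-fold), Gusb (1.70-fold) and Manba (1.70-fold). Gla (log2 -0.22, adjusted p = 0.072), Idua (log2 0.19, adjusted p = 0.32) and Neu1 (log2 -0.06, adjusted p = 0.77) were not called. Of the activators and lipid carriers, Psap rose 1.81-fold and Grn 1.68-fold, and Npc2 and Gm2a were not called. Lamp1 and Scarb2 rose 1.70-fold and 1.29-fold, whereas Lamp2 (log2 0.13, adjusted p = 0.38) and Laptm5 (log2 0.00, adjusted p = 0.99) were not called. Mcoln1 also was not called (log2 0.06, adjusted p = 0.58). Sgsh was at 16.2 ± 2.20 CPM in EGFP- and 19.5 ± 1.82 CPM in EGFP+ IMs and was not called (adjusted p = 0.27). Tpp1, Lgmn and Acp5 rose 1.70-fold, 1.36-fold and 1.82-fold, and Ppt1 was not called (adjusted p = 0.53). The Lgmn call was lost with any library left out other than EGFP+ replicate 3, and that of Gaa, a glycosidase 1.34-fold higher, with any library left out.

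Of the 12 cathepsins 8 were higher and 1 lower in EGFP+ IMs, with Ctsk 3.61-fold higher and Ctse 2.02-fold lower. The proton pump genes gave 8 rises and 1 fall among 16. Atp6v0d2, a macrophage and osteoclast subunit, had a log2 fold change of 3.45, and Atp6v0c 2.01-fold lower. Of 17 further hydrolases 13 were higher and none was called lower, and of 12 further membrane proteins 5 were higher. Of 6 sorting genes 2 were higher, with Sort1, a sorting receptor, 3.41-fold higher. Of 9 MiT/TFE factors and partners 3 were higher, Tfec 1.69-fold and Mitf 1.42-fold among them, and 2 lower. All 10 neutrophil markers were lower in EGFP+ IMs (2201 to 3024 CPM against 5124 to 6689 CPM) and 4 of 6 macrophage markers were higher (10349 to 14298 CPM against 4847 to 4906 CPM). Alveolar macrophage markers were called higher for 6 of 7 (234 to 297 CPM against 96.7 to 104 CPM). Dendritic cell markers were called lower for 4 of 6 (112 to 131 CPM against 233 to 243 CPM). Their part in the differences of the lysosomal genes was not tested.

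The bleomycin and the EGFP comparison in IMs use no library in common. Of the 27 genes higher after bleomycin and the 23 higher in EGFP+ IMs, 22 were shared, which is 81.5% of the first and 95.7% of the second. Of all 34 genes 79.4% were higher after bleomycin and 67.6% in EGFP+ IMs. Smpd1 was higher in EGFP+ IMs without a call after bleomycin. Cln3 was lower in both, and no gene was called in opposite directions.

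Later in injury, EGFP+ IMs at day 14 were set against EGFP+ IMs at day 7. At day 14, 27 of the 34 genes were higher, none was called lower and 7 were not called. Over the 14967 genes tested, 25.3% were called higher and 26.9% lower, and the median log2 fold change was 0.67 for the 34 genes and 0.00 for all. By edgeR at an unadjusted p under 0.05 the number lower was also 0, and DESeq2 gave 0. The day 7 and day 14 libraries are in different deposited tables, so table and day cannot be told apart. With library totals alone in place of scaling factors, the median over all genes moved to -0.22, and 22 genes were higher and 2 lower.

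Acp5 (ENSMUSG00000001348, chromosome 9, 22126727 to 22135711) was at 213, 237 and 244 CPM at day 7 and at 384, 582 and 619.6 CPM at day 14. The groups did not overlap (2.70-fold, log2 1.43 ± 0.18 SE, adjusted p = 8.0e-05). Its exons overlap 6530413G14Rik on the other strand, which went from 65.3 ± 3.31 to 175 ± 43.5 CPM. Hexa (ENSMUSG00000025232, chromosome 9, 59539540 to 59565109) was at 360.0, 451 and 458 CPM at day 7 and 540.0, 909.8 and 1125 CPM at day 14 (2.41-fold, log2 1.27 ± 0.25 SE, adjusted p = 0.0024). For both genes, replicate 1 at day 14 was the lowest of its group, and without it the log2 fold changes were 1.64 and 1.53. Leaving out that library gave 30 genes higher and none lower. Exons of Hexa overlap those of Tmem202 on the other strand, which went from 74.9 ± 7.90 to 127 ± 40.7 CPM.

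All 5 membrane glycoproteins and all 4 lipid hydrolases were called higher at day 14 than at day 7, with Cd63 2.27-fold, Pla2g15 2.34-fold, Galc 2.20-fold and Smpd1 2.03-fold higher. Laptm5 overlapped between the days (968 to 1046 and 1025 to 1317 CPM) and lost its call without scaling factors, without day 14 replicate 2 or without day 7 replicate 2, and Scarb2 lost its call without scaling factors. The gene models of Cd63, Galc, Npc2, Npc1 and Arsb differ between the tables. Lgmn and Ppt1 rose 2.36-fold and 1.5-fold. Of the 11 glycosidases 8 rose, with Man2b1, a mannosidase, 2.18-fold and Gusb 2.03-fold higher. Gla was at 235 ± 13.6 and 201 ± 4.28 CPM and had a log2 fold change of 0.00 after scaling (adjusted p = 0.99). Npc2 rose 1.95-fold and Gm2a 1.62-fold, while Grn was not called (log2 0.30, adjusted p = 0.067). Between EGFP+ and EGFP- IMs, Npc2 and Gm2a had been called only with just the 2 groups compared in the fit. Npc1 and Cln3 were not called (adjusted p = 0.25 and 0.34), and Mcoln1 was called at a log2 fold change of 0.23, a call that 8 of 14 alternative settings did not make. The EGFP+ libraries of day 7 enter both this comparison and that with EGFP- IMs.

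Of the 12 cathepsins 11 were higher at day 14 and 1 lower, with Ctsf 8.29-fold higher and Ctse 3.34-fold lower. Of 16 proton pump genes 15 were higher. The gene model of Atp6v0c differs between the tables, and its 16.7-fold difference is therefore given as a value alone. Atp6ap1 was 1.5-fold higher. Of 17 further hydrolases 14 were higher. Of 12 further membrane proteins 7 were higher, with Laptm4a 1.97-fold higher, and of 6 sorting genes 3 were higher and 1 lower. The MiT/TFE factors and partners gave 1 rise, Tfec by 1.75-fold, and 3 falls, Fnip1 by 1.5-fold among them. All 10 neutrophil markers were lower at day 14 (117 to 185 CPM against 2201 to 3024 CPM) and all 6 macrophage markers were higher. The part of these cells in the rise of the lysosomal genes was not tested.

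In AMs the reporter-positive cells after bleomycin were set against those after PBS. At day 14, 22 of the 34 genes were higher than after PBS, 4 were lower and 8 were not called. Over the 14706 genes tested, 27.3% were called higher and 27.6% lower, and the median log2 fold change was 0.44 for the 34 genes and -0.01 for all. At day 30, 24 were higher than after PBS, 3 were lower and 7 were not called. There 24.8% of genes were called higher and 23.1% lower, and the medians were 0.50 and 0.02. Both comparisons use the same PBS libraries, which were taken at day 7 and are in the other deposited table. Treatment, day and table therefore cannot be told apart. Without scaling factors the median over all genes moved to -0.20 at day 14 and -0.09 at day 30, with 20 higher and 5 lower at day 14 and 23 higher and 4 lower at day 30.

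Sgsh (ENSMUSG00000005043, chromosome 11, 119343425 to 119355536), Acp5, Cd63 and Lgmn changed most. Sgsh was at 2.35, 1.67 and 2.74 CPM after PBS, 10.1, 11.4 and 12.2 CPM at day 14 and 6.62, 7.84 and 9.60 CPM at day 30. Every bleomycin library was above every PBS library, and the rise at day 14 was 5.71-fold (log2 2.51 ± 0.21 SE, adjusted p = 3.0e-08). The overlapping gene Card14 on the other strand was at 0.73 ± 0.56, 3.42 ± 0.20 and 2.13 ± 0.60 CPM in the same groups. Acp5 was at 190.1, 193 and 188 CPM after PBS. It stood at 698, 707 and 826 CPM at day 14 and 780.1, 829 and 808 CPM at day 30, 4.45-fold (adjusted p = 2.2e-12) and 4.58-fold (adjusted p = 1.9e-12) above PBS. Cd63 was at 165, 149 and 164 CPM after PBS, at 656, 487 and 549.8 CPM at day 14 and at 743, 783 and 801 CPM at day 30. The groups after bleomycin did not overlap with PBS, and the rise at day 30 was 5.27-fold (log2 2.40 ± 0.10 SE, adjusted p = 6.0e-12). The gene models of Cd63, Npc2, Galc, Npc1 and Arsb differ between the tables, and these comparisons with PBS cross them. Lgmn rose 3.48-fold at day 14 and 3.95-fold at day 30, from 205 ± 3.22 to 629 ± 90.3 and 749.8 ± 21.8 CPM.

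Falls were smaller. Cln3 was at 136, 136 and 132 CPM after PBS, 90.0, 98.7 and 86.0 CPM at day 14 and 100.4, 97.3 and 96.2 CPM at day 30. It was lower in every bleomycin library, by a fold of 1.30 at day 14 (adjusted p = 0.0003) and 1.27 at day 30 (adjusted p = 0.00067), and Apobr went from 199 ± 9.14 to 181 ± 2.99 and 146 ± 2.50 CPM. Pla2g15 (ENSMUSG00000031903, chromosome 8, 106150399 to 106164715) was at 446, 471 and 426 CPM after PBS and 314, 320.3 and 315 CPM at day 14. All day 14 libraries were lower (1.24-fold, log2 -0.31 ± 0.07 SE, adjusted p = 0.0016), a call that was lost with all 24 libraries in one fit (adjusted p = 0.0581). At day 30 it was back at 398, 434 and 447 CPM. Scarb2 (ENSMUSG00000029426, chromosome 5, 92441314 to 92506833) was at 522, 517 and 502 CPM after PBS and 388, 375 and 367 CPM at day 30, lower in all 3 libraries (1.26-fold, log2 -0.33 ± 0.07 SE, adjusted p = 0.00095). Mcoln1 and Laptm5 were also called lower at day 14, by folds of 1.22 and 1.24, and Ppt1 at day 30, by 1.23. The Mcoln1 call was lost without PBS replicate 1 and the Laptm5 call without PBS replicate 2.

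All 4 activators or lipid carriers rose at both times: Psap 2.27-fold and 3.09-fold, Gm2a 2.07-fold and 1.70-fold, Npc2 1.93-fold and 1.96-fold, and Grn 1.68-fold and 1.66-fold, at day 14 and day 30. Of the 11 glycosidases 9 rose at each time, with Man2b1 highest in fold (2.07 and 1.93). One of those at day 14 was Glb1, whose day 14 libraries (59.5 to 68.1 CPM) spanned those after PBS (60.7 to 61.3 CPM) and whose call was lost in 7 of 14 alternative settings, among them leaving out day 14 replicate 3 or any PBS library. Gla, which fell with bleomycin in wild-type IMs, rose 1.38-fold and 1.66-fold in AMs, from 116 ± 5.09 to 141 ± 11.8 and 179 ± 14.2 CPM. Neu1 rose 1.26-fold and 1.29-fold, the former not called without scaling factors, and Idua was not called at either time. Asah1 rose 1.76-fold and 1.47-fold and Galc 1.5-fold and 1.6-fold. No channel or transporter gene rose at either time, and Npc1 was not called (adjusted p = 0.93 and 0.21).

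The IM and AM bleomycin comparisons share no library, and they differ in mouse line, day and EGFP sort as well as in gate. Of the 27 genes higher in wild-type IMs and the 22 higher in AMs at day 14, 19 were shared (70.4% and 86.4%), where 79.4% and 64.7% of all 34 were higher. Of the same 27 and the 24 higher in AMs at day 30, 19 were shared too (70.4% and 79.2%). There the share of the 27 that were also higher in AMs was no greater than the share of all 34 (70.6%). Mcoln1 and Pla2g15 were higher in IMs and lower in AMs at day 14, Scarb2 was higher in IMs and lower in AMs at day 30, and Gla was lower in IMs and higher in AMs at both times. The difference between the gates in these effects was not tested.

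Of the 12 cathepsins 10 were higher and 2 lower at day 14 and 10 higher and 1 lower at day 30, with Ctss 2.87-fold higher at day 14 and Ctsd 3.02-fold at day 30. Of 16 proton pump genes 12 and 14 were higher. Atp6v0c, with its differing gene model, had values of 13.5-fold and 13.1-fold. Of 6 sorting genes 2 were higher and 1 lower at day 14, and 2 higher and 2 lower at day 30. Among them Igf2r rose from 13.2 ± 1.17 to 32.3 ± 4.18 and 60.5 ± 6.83 CPM. Of 16 further hydrolases 12 were higher at each time, Naaa by 1.74-fold at day 14 and Lipa, the acid lipase, by 1.97-fold at day 30. Further membrane proteins gave 7 and 5 rises and 1 fall each among 12, the fall being that of Cd164 (2.09-fold and 1.53-fold). MiT/TFE factors and partners gave 7 rises at day 14, and 6 rises and 1 fall at day 30, with Mitf 1.69-fold higher at day 14. Macrophage markers summed to 25568 to 26639 CPM after PBS, 35601 to 46607 CPM at day 14 and 55929 to 61276 CPM at day 30. Of these 6 markers, 5 and 4 were called higher, and 1 lower at each time. Epithelial markers summed to 392 to 398 CPM after PBS, 87.4 to 89.0 CPM at day 14 and 147 to 199 CPM at day 30, with 9 and 6 of 10 called lower and 2 higher at day 30. Alveolar macrophage markers summed to 3294 to 3665, 2314 to 3247 and 2198 to 2251 CPM, with 3 of 7 called lower at each time and 1 and 2 higher. Markers of interstitial macrophages and monocytes summed to 52.3 to 89.4 CPM after PBS, 733 to 809 CPM at day 14 and 318 to 420.3 CPM at day 30, with 4 and 5 of 5 called higher. At day 30 neutrophil markers were also higher than after PBS (534 to 621 against 113 to 191 CPM, 7 of 10 called), as were fibroblast markers (69.4 to 76.7 against 7.09 to 10.1 CPM, 5 of 5) and T and NK cell markers (47.5 to 53.4 against 19.9 to 27.8 CPM, 5 of 6). Dissociation stress genes summed to 3026 to 3111 CPM after PBS and 7095 to 7186 CPM at day 30, with 3 of 8 called higher and 2 lower. At day 14, 8 of 10 neutrophil markers were lower than after PBS. Their part in the changes of the lysosomal genes was not tested.

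**Figure D4:**
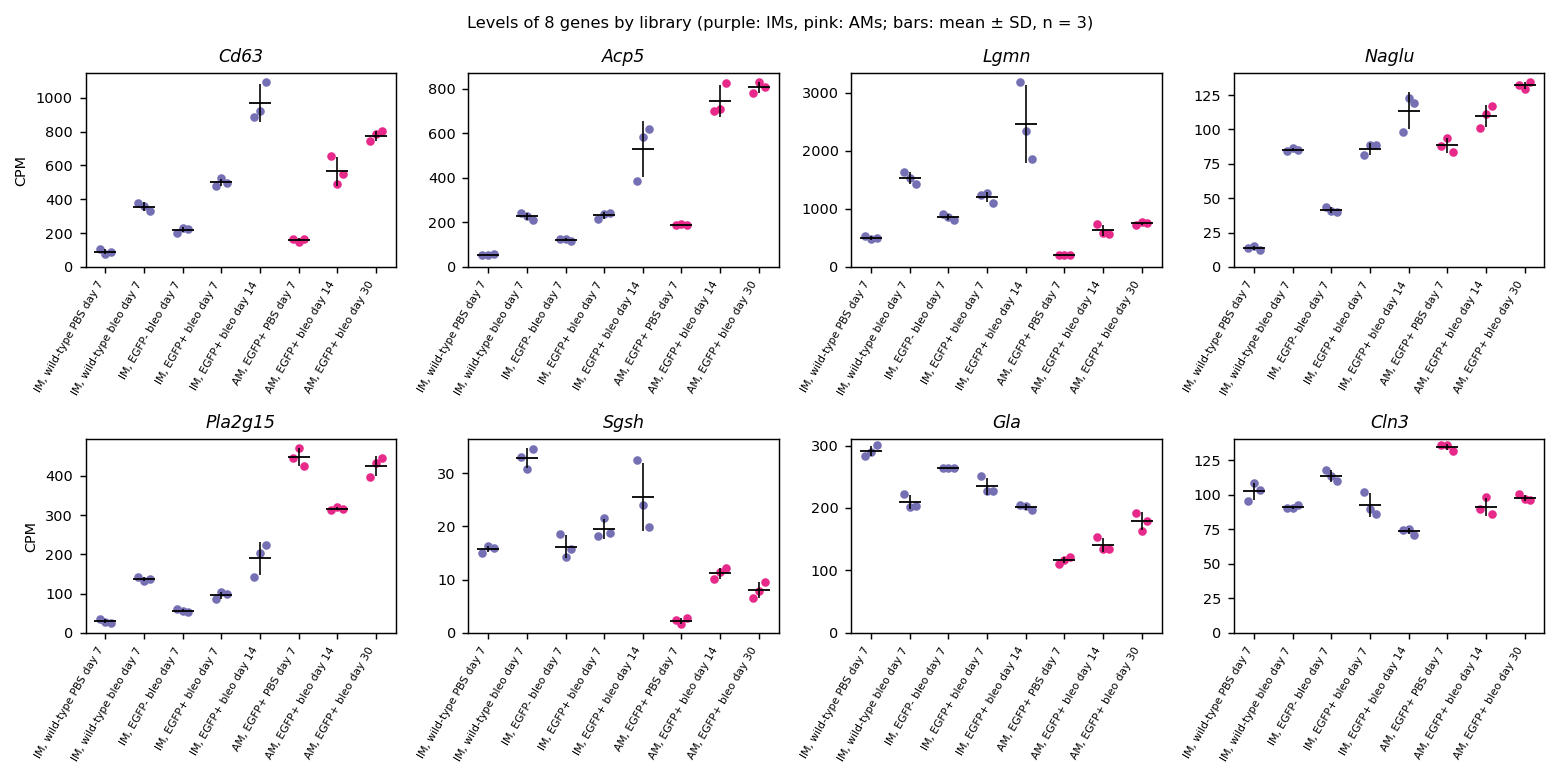
CPM of 8 lysosomal genes in every library (points), with the group mean ± SD of 3 libraries (bars); each vertical axis is linear and starts at 0. Cd63 and Acp5 are higher after bleomycin in both gates, Pla2g15 lies between 398 and 471 CPM in AMs after PBS and at day 30 and between 314 and 320.3 CPM at day 14, and Sgsh is at 1.67 to 2.74 CPM in AMs after PBS.

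Between day 14 and day 30 the AM genes moved both ways. At day 30, 11 of the 34 genes were higher, 8 were lower and 15 were not called, against 19.6% higher and 18.7% lower of all 14706 genes. The median log2 fold change was 0.04 for the 34 genes and 0.01 for all. Both groups are in the same deposited table. Laptm5 (ENSMUSG00000028581, chromosome 4, 130913125 to 130936141) was at 1237, 1345 and 1519 CPM at day 14 and 2029.8, 2185 and 2272 CPM at day 30. All day 30 libraries were higher (1.5-fold, log2 0.59 ± 0.09 SE, adjusted p = 7.5e-05). Gaa (ENSMUSG00000025579, chromosome 11, 119267887 to 119285454), the acid glucosidase that digests glycogen, went from 82.2, 99.4 and 97.6 CPM to 138, 138 and 148 CPM, again with no overlap (1.44-fold, log2 0.53 ± 0.08 SE, adjusted p = 0.00011). Psap and Smpd1 rose 1.37-fold and 1.35-fold, and Cd63 1.31-fold.

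Sgsh was lower at day 30, 6.62, 7.84 and 9.60 CPM against 10.1, 11.4 and 12.2 CPM (1.47-fold, log2 -0.56 ± 0.19 SE, adjusted p = 0.027). This call was lost without day 30 replicate 1 (adjusted p = 0.112), day 30 replicate 2 (adjusted p = 0.0706) or day 14 replicate 3 (adjusted p = 0.0954), and with library totals alone (adjusted p = 0.0534). Manba (ENSMUSG00000028164, chromosome 3, 135485611 to 135571404) went from 144, 149.7 and 159 CPM to 122, 117 and 115 CPM, lower in every library (1.34-fold, log2 -0.42 ± 0.07 SE, adjusted p = 0.00029). Ppt1 fell 1.28-fold, Arsb, which removes sulfate from dermatan and chondroitin sulfate, 1.27-fold, Lamp2 1.24-fold and Gm2a 1.22-fold. The Gm2a call was lost without day 30 replicate 1 or day 14 replicate 3. Without day 30 replicate 2 the number of genes called lower was 5, and with library totals alone 14 were higher and 5 lower. Of the 12 cathepsins 5 were higher, Ctsd by 1.77-fold, and 3 lower, Ctsc by 1.79-fold. Proton pump genes gave 4 rises and 2 falls among 16, and further hydrolases 2 rises and 3 falls among 16. Rragd, a partner of the MiT/TFE factors, was 4.01-fold higher and Tfec 1.6-fold lower. Dissociation stress genes summed to 2804 to 3465 CPM at day 14 and 7095 to 7186 CPM at day 30, with 4 of 8 called higher and 3 lower. Neutrophil markers summed to 45.4 to 77.3 and 534 to 621 CPM, and fibroblast markers to 3.05 to 6.81 and 69.4 to 76.7 CPM. Their part in these differences was not tested.

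EGFP+ IMs and EGFP+ AMs were compared at day 14. In IMs 7 of the 34 genes were higher, 2 were lower and 25 were not called, against 10.8% higher and 10.2% lower of all 13460 genes tested. The median log2 fold change was 0.17 for the 34 genes and 0.01 for all. Replicate numbers met the rule for pairing here, and with the replicate block 9 genes were higher in IMs and 5 lower. With library totals alone 7 were higher and 7 lower. Without IM replicate 1, the library that stood apart, 12 were higher and 3 lower.

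Lgmn (ENSMUSG00000021190, chromosome 12, 102394084 to 102439813) was at 3185, 2332 and 1864 CPM in IMs and at 733, 579 and 574 CPM in AMs. It was 4.19-fold higher in IMs (log2 2.07 ± 0.20 SE, adjusted p = 5.9e-05), with the library that stood apart the highest and a log2 fold change of 1.90 without it. Sgsh was at 32.5, 24.1 and 19.98 CPM in IMs and 10.1, 11.4 and 12.2 CPM in AMs, 2.44-fold higher with no overlap (log2 1.29 ± 0.17 SE, adjusted p = 0.00048). Arsb (ENSMUSG00000042082, chromosome 13, 93771630 to 93943016) was at 35.2, 45.8 and 39.8 CPM in IMs and 65.4, 77.7 and 72.6 CPM in AMs, lower in all IM libraries (1.64-fold, log2 -0.71 ± 0.15 SE, adjusted p = 0.007). Ppt1 (ENSMUSG00000028657, chromosome 4, 122836242 to 122859175) was at 153, 181 and 172 CPM in IMs and 269, 268 and 277 CPM in AMs, 1.48-fold lower (log2 -0.56 ± 0.14 SE, adjusted p = 0.017). Without AM replicate 3 its call was lost (adjusted p = 0.0735). Exons of Ppt1 overlap those of Cap1 on the other strand, which was at 712 ± 87.4 CPM in IMs and 846 ± 92.5 CPM in AMs. Cd63, Npc2, Gla, Galc and Gusb were 1.87-fold, 1.65-fold, 1.55-fold, 1.55-fold and 1.48-fold higher in IMs. The Npc2 call was lost with any library left out other than IM replicate 1, and the Gusb call without IM replicate 2 or AM replicate 2 or 3. Pla2g15 (log2 -0.60, adjusted p = 0.051), Neu1 (log2 -0.51, adjusted p = 0.054) and Scarb2 (log2 -0.39, adjusted p = 0.055) had lower values in IMs that did not pass the test without the block. With the replicate block all 3 were called lower (adjusted p = 0.011 for Pla2g15, 0.0072 for Neu1 and 0.033 for Scarb2), and Lamp1 and Grn were called higher (adjusted p = 0.041 and 0.026).

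Among the other lists, 4 of 12 cathepsins were higher in IMs and 1 lower, with Ctsb 2.87-fold higher and Ctsk 2.82-fold lower. Igf2r was 4.28-fold higher in IMs, and Sort1 3.51-fold and Cd164 3.58-fold lower. Proton pump genes gave 2 rises and 1 fall among 16, further hydrolases 4 rises and 1 fall among 17, and further membrane proteins 3 falls among 12. The summed macrophage markers ranged from 15067 to 49520 CPM in the IM libraries and from 35601 to 46607 CPM in the AM libraries, alveolar macrophage markers from 307 to 384 and from 2314 to 3247 CPM, and neutrophil markers from 117 to 185 and from 45.4 to 77.3 CPM. Their part in the differences of the lysosomal genes was not tested.

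After PBS at day 7, EGFP+ AMs of reporter mice were set against wild-type IMs, so that gate, mouse line and EGFP sort cannot be told apart. In AMs 28 of the 34 genes were higher, 5 were lower and 1, Lamp2, was not called. Over the 15828 genes tested, 39.7% were called higher and 39.2% lower, and the median log2 fold change was 0.81 for the 34 genes and 0.01 for all. Pla2g15 was at 446, 471 and 426 CPM in AMs and 36.4, 29.0 and 25.01 CPM in IMs, 14.9-fold higher (log2 3.90 ± 0.11 SE, adjusted p = 6.1e-11). This enzyme degrades phospholipids in the acid lumen and is known for its high activity in alveolar macrophages. Naglu was at 88.2, 93.9 and 83.3 CPM in AMs against 14.0, 15.3 and 12.3 CPM in IMs (6.40-fold, log2 2.68 ± 0.08 SE, adjusted p = 1.0e-15). Sgsh was at 2.35, 1.67 and 2.74 CPM in AMs and 15.1, 16.3 and 15.9 CPM in IMs, 7.06-fold lower (log2 -2.82 ± 0.17 SE, adjusted p = 1.4e-11). Card14 was lower in the same direction, 0.73 ± 0.56 against 3.84 ± 0.65 CPM. Gla was at 111, 117 and 121 CPM in AMs and 284, 289 and 301 CPM in IMs, 2.50-fold lower (log2 -1.32 ± 0.05 SE, adjusted p = 6.2e-14). In all 4 genes the groups did not overlap. Lgmn and Gm2a were also lower in AMs, by 2.45-fold and 1.65-fold, and Npc2 by 1.09-fold. The Npc2 call was lost in 7 of 12 alternative settings, among them leaving out any AM library or IM replicate 1 or 3. All 3 channels or transporters were higher, with Npc1 4.37-fold, Mcoln1 2.59-fold and Cln3 1.32-fold. Manba (4.45-fold), Gusb (3.44-fold), Acp5 (3.49-fold) and Tpp1 (3.19-fold) were higher as well, whereas Psap was 1.15-fold higher.

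In the same comparison 10 of 12 cathepsins were higher and 2 lower, 15 of 16 proton pump genes were higher and 1 lower, and 14 of 17 further hydrolases were higher and 3 lower. Of 12 further membrane proteins 11 were higher and 1 lower, with Cd164 8.45-fold higher. Of 9 MiT/TFE factors and partners 3 were higher, Tfec by 38.8-fold, and 6 lower, Flcn by 2.27-fold. All 10 neutrophil markers were lower in AMs (113 to 191 CPM against 8069 to 9544 CPM). Epithelial markers summed to 392 to 398 against 4445 to 6622 CPM, with 9 of 11 called lower and 2 higher. Of the 6 macrophage markers 5 were higher in AMs and 1 lower (25568 to 26639 against 10336 to 10517.5 CPM in sum). Their part in the differences of the lysosomal genes was not tested.

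**Figure D5:**
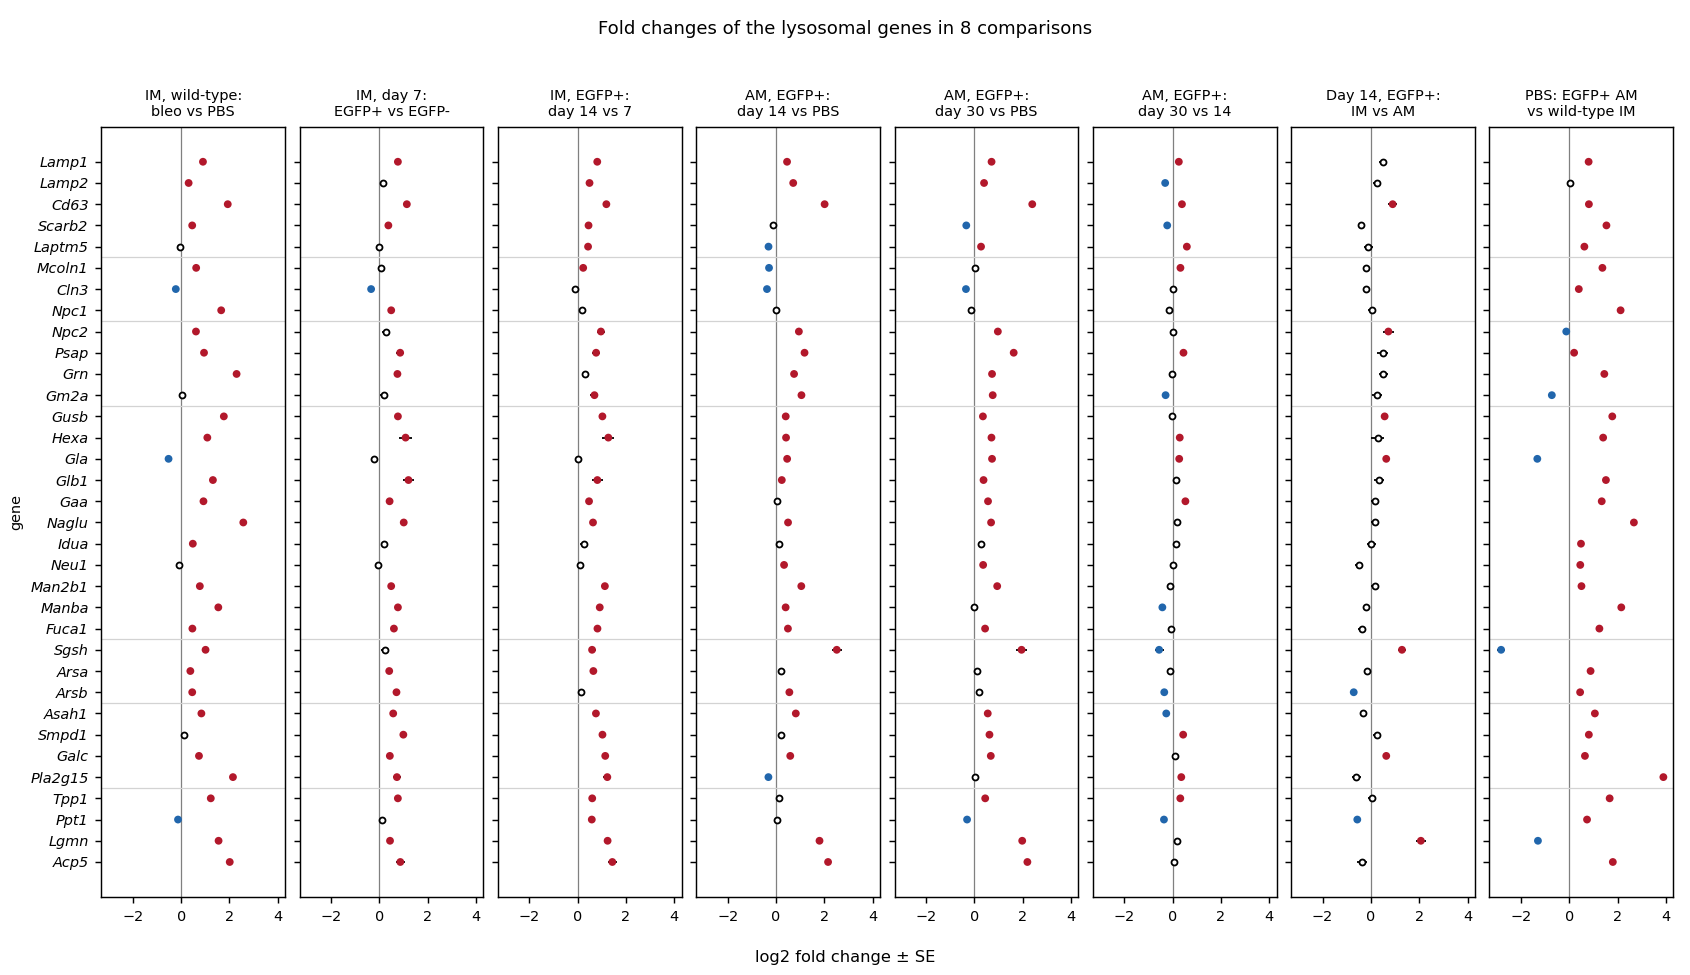
Log2 fold change ± SE (horizontal axes) of the 34 genes (rows) in the 8 comparisons (panels); red points were called higher in the first group named, blue points lower, and open points were not called, by edgeR at an adjusted p under 0.05. Red points number 28 of 34 for AMs against IMs after PBS, 22 to 27 in the panels of bleomycin, of EGFP and of IMs at day 14 against day 7, 11 for AMs at day 30 against day 14, and 7 for IMs against AMs at day 14.

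Of the 34 genes 13 share exon sequence with another annotated gene, most of them on the other strand. The 21 without such an overlap gave 16 higher and 1 lower in wild-type IMs after bleomycin, 14 and 0 in EGFP+ against EGFP- IMs, 19 and 0 at day 14 against day 7, 14 and 3 in AMs at day 14 and 17 and 1 at day 30 against PBS. They gave 9 and 5 for AMs at day 30 against day 14, 5 and 0 for IMs against AMs at day 14, and 16 and 4 for AMs against IMs after PBS. No gene called in a comparison had the other sign there under the alternative settings run.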

How the data were processed

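The values are whole-number counts for each gene, not normalized by the authors, in 2 deposited tables that hold 15 and 9 of the 24 libraries. Per the submitters' processing notes, FastQC 0.11.5, Trimmomatic 0.38, HISAT2 2.1.0, SAMtools and featureCounts 1.6.3 were used with GRCm38; the annotation and strand setting are not given in the sources used here. The age, sex and zygosity of the mice are not given there either. The 49022 genes in both tables hold at least 99.486% of each library's counts, and 3 count columns that match no sample were not used.

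From the counts, edgeR 4.0.16 (R 4.3.3, limma 3.58.1) gave 8 comparisons by the 2-sided quasi-likelihood F test with TMM scaling, filterByExpr and robust fitting. The 3 reporter IM groups were fitted together, and so were the 3 AM groups. In comparisons within either set, the group not compared thus also entered the filter, the scaling and the estimate of the spread. The other comparisons were fitted on their 2 groups alone. P-values were adjusted by Benjamini-Hochberg over all genes tested and called under 0.05; the script was tested on simulated data. SE is the log2 fold change divided by the root of F. CPM use the library's total. Library totals of 13450053 to 24580620 put the lowest count of a lysosomal gene at 41, and precision rests on 3 libraries a group. The genes given by library are, for each comparison, the called ones with the 2 largest changes in each direction among those whose groups do not overlap. Others are named as the largest change of their role or list, as not called, as going against the rest, or as further examples chosen after their values were seen. The members and all lists were chosen with earlier results of these data known.

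Same-numbered libraries deviated together in each pair only for day 14 IMs and AMs (correlations 0.25, 0.16 and 0.20; limit 0.1), and the labels name no shared animal. Alternatives were DESeq2 1.42.0, DESeq2 size factors, no low-count filter, all 24 libraries in one fit, only the groups compared, genes with unchanged models, a replicate block, leaving out each library and, added after seeing the data, no scaling factors.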

Additional observations from a re-analysis of the deposited data

Results flagged for a closer look

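Laptm5 was called in opposite directions in AMs at the 2 times after bleomycin. Against PBS (1930.3 ± 143 CPM, SD, n = 3) edgeR gave a log2 fold change of -0.31 at day 14 (1367 ± 143 CPM) and 0.28 at day 30 (2162 ± 123 CPM). The difference was tested directly: day 30 was above day 14 by a log2 fold change of 0.589 (adjusted p = 7.5e-05 by edgeR), higher in all 3 libraries. The rise against PBS at day 30 was less secure: its libraries (2029.8 to 2272 CPM) overlapped with those after PBS (1821 to 2092 CPM). That call was lost in 5 of 14 alternative settings, namely without scaling factors, without day 30 replicate 2 or 3, and without PBS replicate 1 or 3. The day 14 call was lost without PBS replicate 2. The PBS libraries are of day 7 and in the other deposited table, while both bleomycin groups are in the same one.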

How the results depend on the processing

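Most counts of called genes stayed within 1.5 times their reported value, and the cause of the changes below was not tested. In EGFP+ against EGFP- IMs, the number lower was 2 with DESeq2, with all 24 libraries in one fit and with only the 2 groups compared, and 0 to 1 with each library left out (0 without EGFP+ replicate 2 or 3). There the genes called over the whole table numbered 5206, and 3280 to 4221 with a library left out. For IMs at day 14 against day 7, 2 were lower without scaling factors. For AMs at day 30 against day 14, 5 were lower without scaling factors, and 5 to 10 with a library left out. For IMs against AMs at day 14, the number higher was 11 with all 24 libraries in one fit, 4 with unchanged gene models and 5 to 12 with a library left out. The number lower there was 5 with DESeq2, 4 without the low-count filter, 11 with all 24 libraries, 5 with the replicate block, 7 without scaling factors and 1 to 4 with a library left out, and the whole-table count was 5906 with all 24 libraries and 1840 to 3326 with a library left out. The replicate block moved no other count of the 34 genes by over 1.5 times (27 higher and 2 lower in wild-type IMs, for example).

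With CPM scaled by the factors, 2 genes were highest in AMs after PBS. The 10 most abundant genes were also left out of the total, but not out of the summed counts of the lysosomal genes. A lysosomal gene was among these 10 in every library but replicate 1 of the AMs after PBS. The values are therefore ratios to the reduced total and not true shares. The mean ratio was 1.18225% and 2.24723% in wild-type IMs after PBS and bleomycin. It was 1.32892% and 2.15021% in EGFP- and EGFP+ IMs at day 7, and 3.35826% in IMs at day 14. In AMs it was 2.70043% at day 14, 3.49093% at day 30 and 1.7345% after PBS. Limits are the 3 libraries a group, the split of the groups over the tables, and Sgsh with its low counts.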
